A study of Mus musculus with 8 samples.

Results

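The 10 genes described here, Plin4, Hif3a, Fkbp5, Tsc22d3, Zbtb16, Sult1a1, Sgk1, Pdk4, Ddit4 and Nr3c1, respond to glucocorticoid hormone or encode its receptor, and their RNA was measured in the striatum of Dclk3 knockout mice. They were taken by name from a list chosen by their levels in these same libraries, by genotype and in single mice, and all 10 were found among the 31417 genes of the count table. Those levels, and the contrast between the genotypes, are therefore given as a description. RNA sequencing covered 8 mice aged 12 months, 4 labelled WT, the wild-type controls of the knockout, and 4 labelled Dclk3 knock out (KO), with 1 striatum per library. The labels do not state strain, sex, the deleted stretch of Dclk3, the time of day or how the mice were handled before dissection. Each mouse gave 1 library, and nothing says which mice share a litter.

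Corticosterone, the main glucocorticoid of mice, crosses into the brain and binds the glucocorticoid receptor, which a chaperone complex holds in the cytoplasm. The bound receptor enters the nucleus and binds DNA at glucocorticoid response elements, inverted pairs of a short half-site, and raises the transcription of genes near many of them. In brain tissue a pulse of hormone, such as one after stress, is known to raise Fkbp5, Tsc22d3, Sgk1, Zbtb16, Sult1a1, Ddit4, Pdk4, Plin4 and Hif3a, in glia and endothelial cells as well as in neurons.

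Total counts ran from 24441242 to 37145559 per library. Levels are given as CPM, the count of a gene scaled to a common library size with TMM factors. Dclk3 checked the labels, at 80.9 to 117 CPM in WT mice and 19.6 to 27.7 CPM in KO mice. The summed level of 10 spiny neuron markers, the defining cells of the striatum, was 4412 to 5244 CPM in WT mice and 4377 to 5005 CPM in KO mice. Knockout replicate 4 and wild-type replicate 4 stood at the ends of the first principal component (-23.5 and 29.9), which held 26.8% of the variance. The contrast between the genotypes is given with and without knockout replicate 4 for most of the 10 genes. In that library 8 of the 10 had their highest value, so leaving it out is not independent of their values. Wild-type replicate 4, farther out on that component, is left out only among the alternatives at the end. Without it the median log2 fold change of the 10 genes was 0.34. Some other values that rest on knockout replicate 4 are given with it only. No pair within a genotype looked like 1 library deposited again: over the 12 such pairs, the chi-square per degree of freedom lay between 7.07 and 32.1.

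The glucocorticoid response element was looked for in the promoter windows of these genes, from 250 bases before to 50 bases after each start site in RefSeq (GRCm38.p6). Windows were found for 8 of the 10 genes, 15 in all; Zbtb16 and Nr3c1 were not matched. The full palindrome, AGAACA followed by any 3 bases and TGTTCT, searched on both strands, was present in 3 of 32851 windows of all genes (0.00913%). Of the 15 windows of these genes 1 held it, a window of Sgk1. The looser core, GNACA followed by any 3 bases and TGTNC, which lies within the full palindrome, was present in 156 windows of all genes (0.475%). Of the 15 windows 1 held it, again a window of Sgk1. Another list of 21 glucocorticoid-induced genes had 25 windows for 18 matched genes. Of those windows 4 held the core, in 3 genes, Mt1, Fam107a and Txnip. The Fam107a site was counted more than once, in overlapping windows, 118 and 120 bases before their starts. The half-site AGAACA on either strand was present in 19.0% of all windows and in 5 of the 15, from 3 genes, Sgk1, Sult1a1 and Tsc22d3. A match is a run of letters and says nothing of binding, and the windows leave out more distant sequence. The upstream stretches of Plin4 and Hif3a, the genes that stood highest in a single library, and of the Sgk1 start with the palindrome (in capitals) are shown, the first 2 without a match to either form, from 250 to 31 bases before the start, at chr17:56109813-56110032 (minus strand), chr7:17062458-17062677 (minus strand) and chr10:21993640-21993859 (plus strand).
Plin4: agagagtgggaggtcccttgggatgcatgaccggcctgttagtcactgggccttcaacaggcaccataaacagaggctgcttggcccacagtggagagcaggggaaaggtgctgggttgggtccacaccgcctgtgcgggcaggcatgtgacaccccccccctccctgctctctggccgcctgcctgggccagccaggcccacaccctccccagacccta
Hif3a: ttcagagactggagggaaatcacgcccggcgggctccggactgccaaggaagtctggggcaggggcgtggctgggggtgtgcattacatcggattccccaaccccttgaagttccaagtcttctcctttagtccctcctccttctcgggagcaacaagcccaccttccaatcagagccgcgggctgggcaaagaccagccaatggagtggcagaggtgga
Sgk1: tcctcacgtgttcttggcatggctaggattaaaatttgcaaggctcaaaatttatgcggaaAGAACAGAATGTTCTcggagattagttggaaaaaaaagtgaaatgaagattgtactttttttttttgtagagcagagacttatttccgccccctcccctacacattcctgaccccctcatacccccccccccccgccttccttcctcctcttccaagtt

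The Sgk1 palindrome began 189 bases before this start, which is 1 of several alternative starts of the gene, and the counts do not show which of them was used. In the other list the core is shown in capitals with 20 flanking bases on each side, at chr8:94178975-94179027 (plus strand), chr14:8309865-8309917 (minus strand) and chr3:96557765-96557817 (plus strand), to set its letters beside those of Sgk1.
Mt1: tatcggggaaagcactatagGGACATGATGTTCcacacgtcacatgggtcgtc
Fam107a: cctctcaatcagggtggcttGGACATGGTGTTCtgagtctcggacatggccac
Txnip: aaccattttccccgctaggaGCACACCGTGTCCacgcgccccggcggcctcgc

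The receptor gene itself was at a similar level in both genotypes. Nr3c1 (ENSMUSG00000024431) encodes the glucocorticoid receptor. It measured 141, 136, 135 and 174 CPM in WT replicates 1 to 4 and 161, 153, 144 and 124 CPM in KO replicates 1 to 4. Wild-type replicate 4 was the highest of the 8 libraries and knockout replicate 4 the lowest, and the genotypes overlapped. WT averaged 146.4 CPM ± 18.7 and KO averaged 145.5 CPM ± 16.1 (SD, n = 4 each), a log2 fold change (knockout over wild type) of -0.01 with a 95% interval of -0.23 to 0.21.

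On the log2 scale Plin4 showed the widest spread of the 10 genes. Plin4 (ENSMUSG00000002831, chromosome 17, 56100591 to 56109803, minus strand) encodes perilipin 4, a coat protein of lipid droplets. Its level was 3.94, 3.54, 1.98 and 1.97 CPM in WT replicates 1 to 4 and 2.87, 1.76, 3.59 and 24.7 CPM in KO replicates 1 to 4. Knockout replicate 4 stood alone, and the other 3 knockout libraries lay inside or just below the wild-type range. WT averaged 2.86 CPM ± 1.03 (SD, n = 4), KO averaged 8.23 CPM ± 11.01 (SD, n = 4), and KO replicates 1 to 3 averaged 2.74 CPM ± 0.924 (SD, n = 3). The counts behind these values were 116, 126, 58 and 72 in wild type and 70, 49, 125 and 677 in the knockout. Exact 95% Poisson intervals, which cover counting error only, were 22.9 to 26.6 CPM in knockout replicate 4 and reached at most 4.73 CPM in any other library. The level in knockout replicate 4 was 8.61-fold the median of the other 7 libraries, which placed Plin4 at rank 2 of 14427 genes with a mean of at least 1 CPM. The Plin4 exons overlap those of Hdgfl2 on the opposite strand, only within bases 56100591 to 56100607. No source says whether reads were counted by strand. Hdgfl2 measured 77.2 CPM in knockout replicate 4 and 68.6 to 78.3 CPM in the other libraries.

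Hif3a followed the same library. Hif3a (ENSMUSG00000004328, chromosome 7, 17031507 to 17062427, minus strand) encodes a member of the hypoxia-inducible factor family. It measured 4.62, 4.97, 2.46 and 2.77 CPM in WT mice and 4.35, 3.70, 5.69 and 14.6 CPM in KO mice. WT averaged 3.70 CPM ± 1.28 (SD, n = 4), and KO 7.09 CPM ± 5.10 (SD, n = 4) or 4.58 CPM ± 1.02 (SD, n = 3) without replicate 4. Knockout replicate 4 was 3.37-fold the median of the other 7 libraries, rank 20 of the same genes. Below that library the order resembled that of Plin4, with wild-type replicates 1 and 2 and knockout replicate 3 at the top and wild-type replicates 3 and 4 and knockout replicate 2 among the lower ones. Across the 8 libraries the log2 CPM of Plin4 and Hif3a had a Pearson r of 0.95 and a Spearman rho of 0.83, and without knockout replicate 4 an r of 0.83 and a rho of 0.75; the points share library and dissection, and these values are a description.

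**Figure D1:**
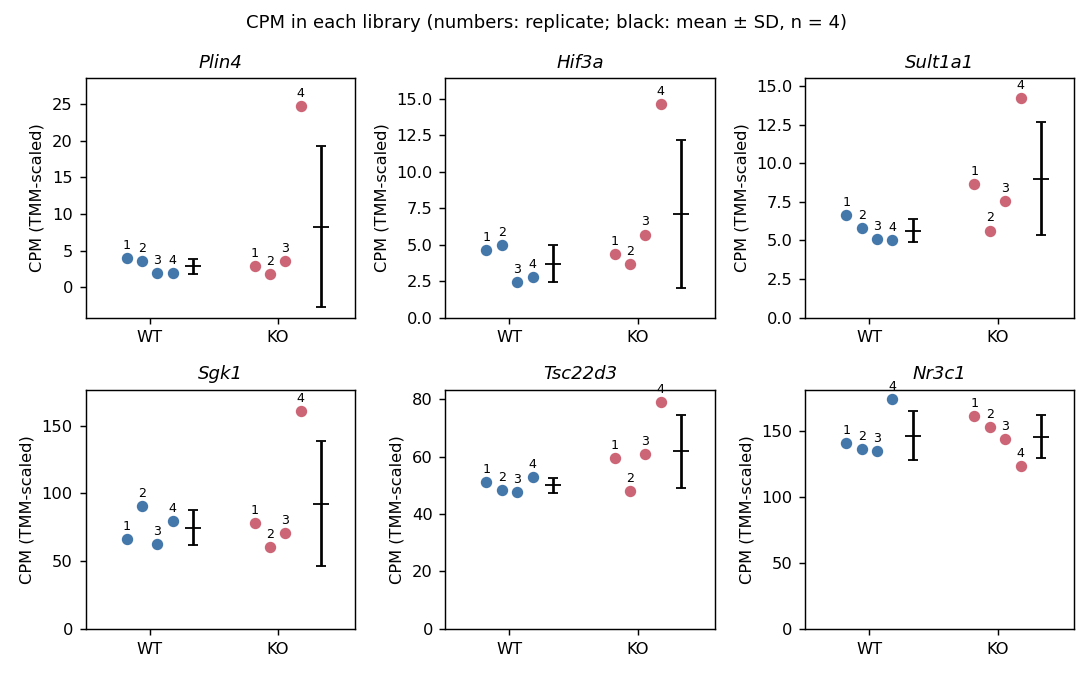
TMM-scaled CPM of 6 of the 10 genes in each library, with wild type (WT) in blue, knockout (KO) in red, replicate numbers above the points, and the mean ± SD (n = 4) in black. Knockout replicate 4 is the highest point for Plin4 (24.7 CPM), Hif3a, Sult1a1, Sgk1 and Tsc22d3 and the lowest for Nr3c1 (124 CPM).

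Sgk1 and Sult1a1 were also above 2-fold in knockout replicate 4. Sgk1 (ENSMUSG00000019970, chromosome 10, 21882184 to 21999903, plus strand), whose upstream stretch is printed above, encodes a kinase that acts on ion channels and transporters. It measured 66.5, 90.3, 62.6 and 79.7 CPM in WT mice and 78.0, 60.4, 70.8 and 161 CPM in KO mice. The first 3 knockout libraries lay within or just below the wild-type range, and knockout replicate 4 was 2.27-fold the median of the other 7 libraries. Sult1a1 (ENSMUSG00000030711, chromosome 7, 126672865 to 126676432, minus strand), a phenol sulfotransferase gene, measured 6.63, 5.81, 5.08 and 5.02 CPM in WT mice and 8.65, 5.64, 7.53 and 14.2 CPM in KO mice. Here knockout replicates 1 and 3 also lay above all wild-type libraries, knockout replicate 2 lay inside their range, and knockout replicate 4 was 2.44-fold the median of the others. Sult1a1 overlaps Sgf29 on the opposite strand, only within bases 126672865 to 126672925. Sgf29 measured 8.36 CPM in knockout replicate 4 and 7.90 to 10.5 CPM elsewhere. Of the 14427 genes, 87 were above 2-fold in that library against the median of the other 7, and Plin4, Hif3a, Sult1a1 and Sgk1 were among them.

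Tsc22d3, Zbtb16, Fkbp5 and Ddit4 were highest in the same library by smaller margins. Tsc22d3 (ENSMUSG00000031431, chromosome X, 140539528 to 140600659, minus strand) encodes GILZ, the glucocorticoid-induced leucine zipper that restrains inflammatory signalling. It measured 51.2, 48.2, 47.6 and 53.0 CPM in WT mice and 59.4, 48.1, 61.1 and 79.0 CPM in KO mice, so that knockout replicates 1, 3 and 4 lay above all wild-type libraries. Zbtb16 (ENSMUSG00000066687, chromosome 9, 48654297 to 48836222, minus strand) encodes the zinc finger repressor PLZF, and measured 15.1, 14.5, 11.6 and 16.9 CPM in WT mice and 13.4, 18.7, 19.0 and 24.02 CPM in KO mice. Knockout replicate 1 of Zbtb16 lay inside the wild-type range.

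Fkbp5 (ENSMUSG00000024222, chromosome 17, 28399094 to 28517527, minus strand) encodes the co-chaperone FKBP51, which lowers the receptor's affinity for hormone and so closes a feedback loop. It measured 44.0, 50.9, 33.1 and 37.1 CPM in WT mice and 40.1, 35.7, 43.1 and 59.4 CPM in KO mice, with knockout replicate 4 at 1.48-fold the median of the other 7. Ddit4 (ENSMUSG00000020108, chromosome 10, 59949669 to 59951834, minus strand) encodes REDD1, an inhibitor of mTOR signalling that hypoxia also induces. It measured 43.2, 42.1, 36.2 and 26.8 CPM in WT mice and 37.8, 34.3, 32.6 and 49.6 CPM in KO mice. For both genes the other knockout libraries lay inside the wild-type range.

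The Ddit4 window held the hypoxia-response core ACGTG, present on either strand in 19.6% of all windows. The core was present in 3 of the 15 windows found for 8 of the 10 genes, from Ddit4, Sgk1 and Fkbp5. It is shown in capitals at chr10:59951933-59951977 (minus strand), since Ddit4 responds to both signals.
Ddit4: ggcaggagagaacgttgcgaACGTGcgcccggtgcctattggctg

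Pdk4 did not follow. Pdk4 (ENSMUSG00000019577, chromosome 6, 5483351 to 5496309, minus strand) encodes a kinase that shuts down pyruvate dehydrogenase when fat is burnt. It measured 19.5, 13.1, 18.4 and 18.7 CPM in WT mice and 16.9, 19.2, 16.9 and 17.5 CPM in KO mice. The lowest value was that of wild-type replicate 2, and knockout replicate 4 lay in the middle, at 0.950 of the median of the other 7.

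**Figure D2:**
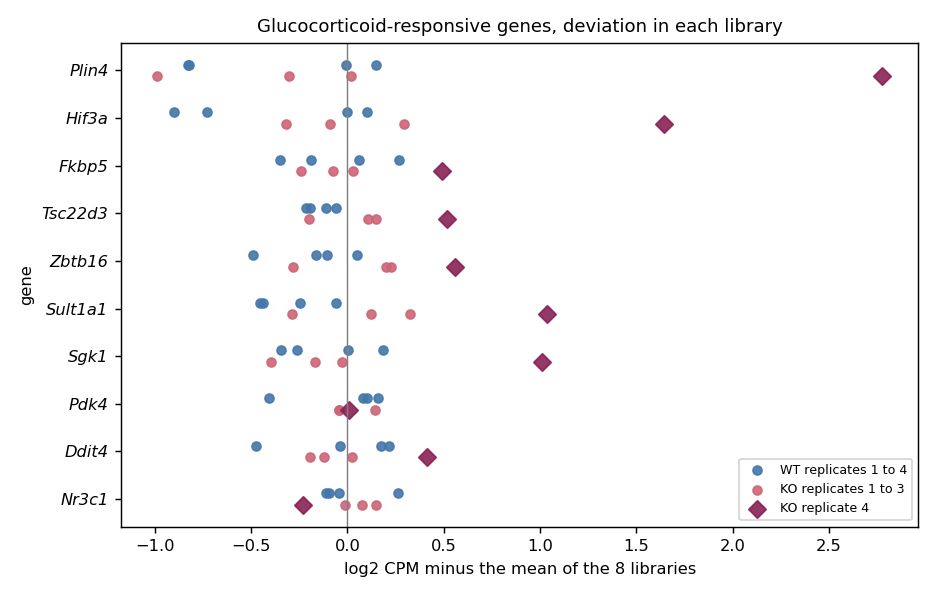
Log2 CPM of each of the 10 genes in each library minus the gene's mean over the 8 libraries, with wild type in blue, knockout replicates 1 to 3 in red and knockout replicate 4 as a dark diamond. The diamond is the highest point for 8 of the 10 genes, lies in the middle for Pdk4 and is the lowest for Nr3c1.

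In knockout replicate 4, 8 of the 10 genes had their highest value of the 8 libraries, where 15.8% of all genes tested had theirs. This counting of highest values was chosen after the values were seen. The genes above their own 8-library median numbered 8 in knockout replicate 4, 7 in knockout replicate 3, 6 in wild-type replicate 1, and 5 in wild-type replicates 2 and 4 and knockout replicate 1. They numbered 3 in knockout replicate 2 and 1 in wild-type replicate 3, against 48.0% to 51.4% of all genes tested in any library. Over the 10 genes the median deviation from the 8-library mean, on the log2 scale, was 0.54 in knockout replicate 4, and the other libraries ran from -0.35 to 0.02. Wild-type replicate 3 was at the low end, with the lowest value of the 8 libraries for 4 genes, Hif3a, Fkbp5, Tsc22d3 and Zbtb16. Of the 45 pairs of these genes, 31 had a Pearson r above 0 over the 8 libraries and 31 had one above 0 without knockout replicate 4, while the median r was 0.60 with that library and 0.19 without it.

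Levels of different genes were compared as CPM per kilobase of annotated exon. In wild type they ran in the order Ddit4 (21.1 ± 4.29), Nr3c1 (19.1 ± 2.43), Sgk1 (15.3 ± 2.59), Tsc22d3 (11.5 ± 0.587), Pdk4 (4.97 ± 0.832), Fkbp5 (4.36 ± 0.826), Sult1a1 (3.74 ± 0.501), Zbtb16 (2.75 ± 0.417), Hif3a (0.552 ± 0.190) and Plin4 (0.495 ± 0.179), each a mean ± SD with n = 4. Of neighbours in this order, Ddit4 and Nr3c1, Nr3c1 and Sgk1, Pdk4 and Fkbp5, Fkbp5 and Sult1a1, and Hif3a and Plin4 were closer to each other than the sum of their SDs. In knockout replicate 4 Plin4 reached 4.28 CPM per kilobase and Hif3a 2.18.

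The genotype comparison asks whether loss of Dclk3 shifts these genes in the adult striatum. In edgeR's quasi-likelihood test over 16511 genes with Benjamini-Hochberg adjustment, 0 of the 10 genes passed an adjusted p of 0.05, where 1 gene, Dclk3, passed in all (0.00606% of genes tested). The adjusted p was 0.999 for all 10 genes. Sult1a1 and Tsc22d3, 2 of the 10, were under an unadjusted p of 0.05 and higher in KO mice, as were 1.96% of all genes (3.76% in either direction). The genotypes overlapped for all 10, and did not overlap for 1.93% of all genes (1.07% higher in KO mice). These counts describe genes that were listed with their values known.

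The log2 fold change, knockout over wild type, was 1.52 for Plin4 (95% interval -0.72 to 3.77) and 0.94 for Hif3a (-0.21 to 2.08). Sult1a1 had 0.68 (0.11 to 1.24), Zbtb16 0.37 (-0.0042 to 0.75), Tsc22d3 0.31 (0.03 to 0.59) and Sgk1 0.30 (-0.49 to 1.09). Fkbp5 had 0.11, Ddit4 0.06, Pdk4 0.02 and Nr3c1 -0.01. In all, 9 of the 10 lay above 0 with a median of 0.31, where 49.5% of all genes lay above 0 with a median of -0.0011.

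Without knockout replicate 4 these values changed. Plin4 was then at -0.05 (95% interval -0.74 to 0.63), Sgk1 at -0.10, Ddit4 at -0.09 and Fkbp5 at -0.06, all on the other side of 0. Hif3a was lower but still above 0 at 0.31, as were Sult1a1 at 0.37 (0.02 to 0.72), Zbtb16 at 0.23 and Tsc22d3 at 0.17. Of the 10 genes 6 lay above 0, with a median of 0.04, and 0 passed an adjusted p of 0.05 in edgeR, where 1 gene did (0.00598% of 16736 genes).

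**Figure D3:**
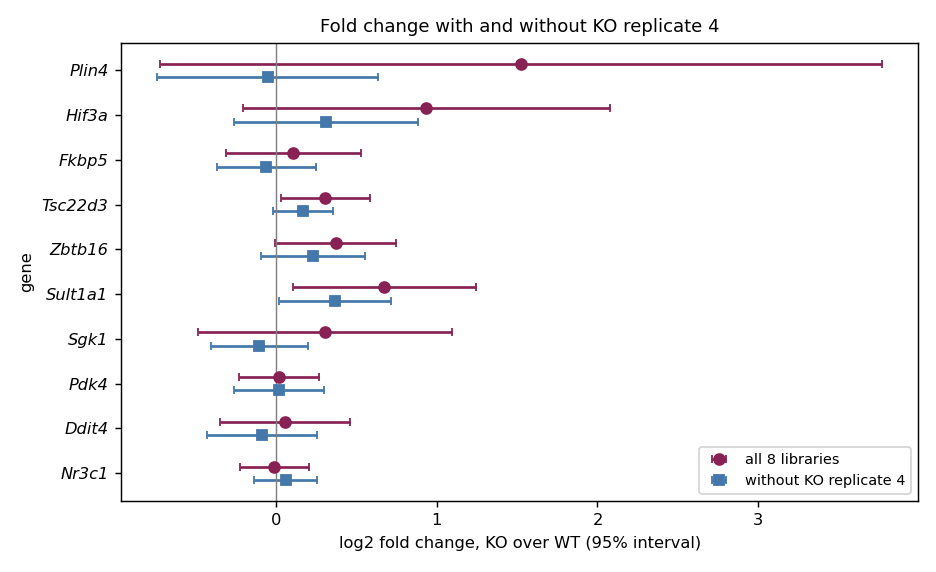
Log2 fold change of the 10 genes, knockout (KO) over wild type (WT), with 95% intervals from edgeR's quasi-likelihood fit, for all 8 libraries (dark circles) and without knockout replicate 4 (blue squares). Plin4 moves from 1.52 to -0.05, and the intervals of 9 of the 10 genes include 0 without that library.

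A wider list of 21 glucocorticoid-induced genes, none of them among the 10, was high in the same library. This list too was chosen with earlier results of these data known, so its values are a description. All 21 were tested, and 0 passed an adjusted p of 0.05 in edgeR in either direction. In the same test 3 were higher at an unadjusted p under 0.05, as were 1.96% of all genes. In knockout over wild type 14 lay above 0, against 49.5% of all genes, and the median log2 fold change was 0.10. In knockout replicate 4, 19 of the 21 lay above their 8-library median, against 50.3% of all genes. Their highest value fell there for 11, against 15.8% of all genes. The 11 were Klf15, Errfi1, Mt1, Mt2, Nfkbia, Arrdc2, Fam107a, Mertk, Angptl4, Plekhf1 and Txnip. Nfkbia, which encodes the inhibitor of NF-kappaB, was at 23.7 CPM there and at 11.4 to 17.99 CPM in the other libraries. Angptl4, an inhibitor of lipoprotein lipase, was at 3.72 CPM against 1.15 to 2.13 CPM, and Plekhf1 at 6.86 CPM against 2.55 to 5.14 CPM. These 11 genes are named because of their values, apart from Fam107a, Mt2 and Mt1, which the naming rule gives.

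The genes of this list with the smallest p were Fam107a, Mt2 and Mt1. Fam107a, an actin-binding protein gene induced by stress hormone, measured 494, 378, 500.3 and 495 CPM in WT mice and 605, 484, 656 and 723 CPM in KO mice. Only knockout replicate 2 lay within the wild-type range, and the log2 fold change was 0.40 ± 0.13 (SE). Mt2, a metal-binding metallothionein gene, measured 54.9, 41.7, 56.7 and 38.5 CPM in WT mice and 62.8, 58.4, 59.9 and 94.9 CPM in KO mice. The genotypes did not overlap for Mt2, with a log2 fold change of 0.53 ± 0.19 (SE). They did not overlap for 1 of the 21 genes, and for 1.93% of all genes tested. Mt2 overlaps Gm45774 on the opposite strand. Its neighbour Mt1 averaged 118 CPM ± 15.5 in WT mice and 143 CPM ± 21.4 in KO mice (SD, n = 4 each). The summed level of 10 astrocyte markers did not overlap between the genotypes either, at 6664 to 7266 CPM in WT mice and 7408 to 7870 CPM in KO mice. Slc1a2 made up most of that sum (mean 4153 CPM in WT mice and 4398 CPM in KO mice) and overlapped between the genotypes. Of the 10 markers taken singly, 2 did not overlap, Aldh1l1 and Gjb6. The log2 fold change was above 0 for 9, and Gfap was at -0.21. The part of astrocytes in these differences was not tested.

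Other genes of this list, among them Per1, Klf9 and Dusp1, were not highest in knockout replicate 4. Per1, a clock gene with a fast response to hormone, was at 112 CPM there and at 74.3 to 137 CPM elsewhere. Klf9, a transcription factor gene, was at 174 CPM against 153 to 197 CPM. Dusp1, a phosphatase that ends MAP kinase signalling, was at 25.9 CPM against 15.3 to 27.3 CPM. Sesn1 and Gpd1 were the 2 genes below their median in that library. These 5 genes were also chosen after their values were seen. Without knockout replicate 4, 12 of the 21 lay above 0 and the median log2 fold change was 0.01.

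**Figure D4:**
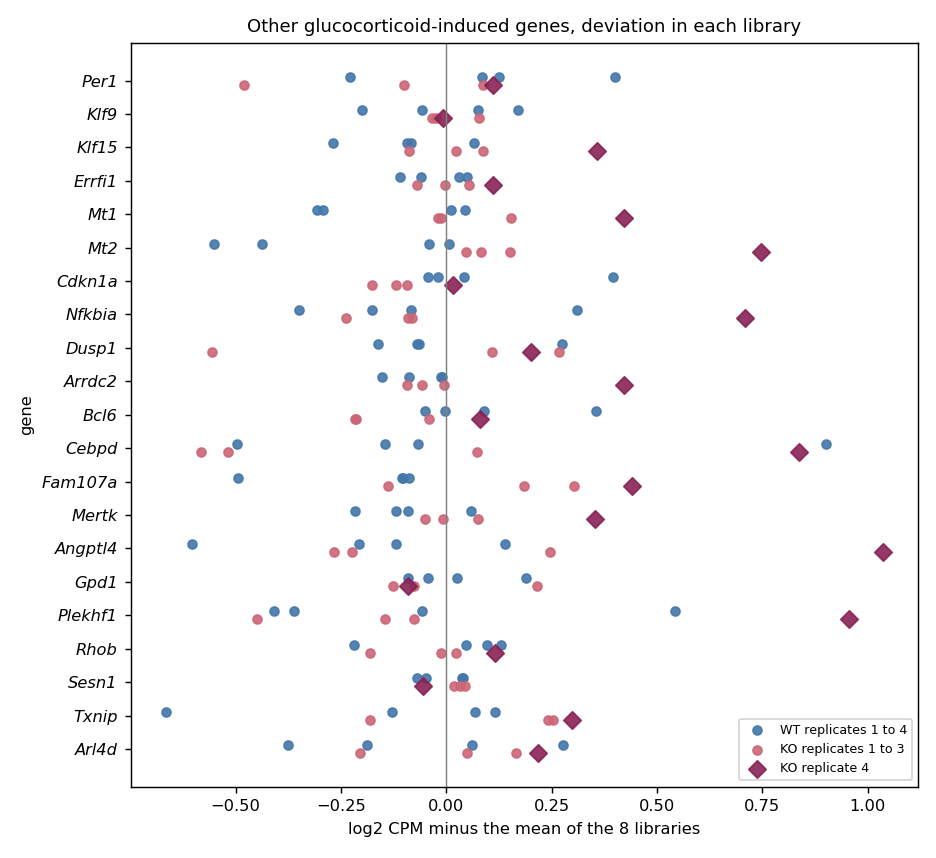
Log2 CPM of the 21 other glucocorticoid-induced genes in each library minus the gene's mean over the 8 libraries, with wild type in blue, knockout replicates 1 to 3 in red and knockout replicate 4 as a dark diamond. The diamond is the highest point for 11 of the 21 genes and lies inside the other points for Per1, Klf9, Dusp1 and Gpd1.

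Genes that carry, convert or relay the hormone had their highest and lowest values spread over several libraries. Of 19 listed genes for the mineralocorticoid receptor, hormone enzymes, chaperones and co-regulators, 18 were tested, 0 passed the threshold in edgeR (1 at an unadjusted p under 0.05, lower), 10 lay above 0, and the median log2 fold change was 0.01. In knockout replicate 4, 8 of the 18 lay above their median, 4 were highest and 2 were lowest. Of all genes tested, 15.8% were highest and 14.9% lowest there. In wild-type replicate 3, 2 lay above their median and 8 were lowest, while 14 lay above it in wild-type replicate 2 and 7 were highest in wild-type replicate 4. Abcb1a, the efflux pump that limits entry of corticosteroids at the blood-brain barrier, averaged 31.3 CPM ± 6.82 in WT mice and 40.6 CPM ± 5.79 in KO mice (SD, n = 4 each), and was highest in knockout replicate 4 at 48.1 CPM. Abcb1a and Ncoa3 each overlap an annotated gene on the opposite strand. Ncoa3, a co-activator gene, was lowest in that library (log2 fold change -0.11). Hsd11b2, the enzyme that inactivates corticosterone, had 0 counts in 6 libraries and 3 and 1 counts in knockout replicates 2 and 3, where 3 counts correspond to 0.0822 to 0.123 CPM.

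**Figure D5:**
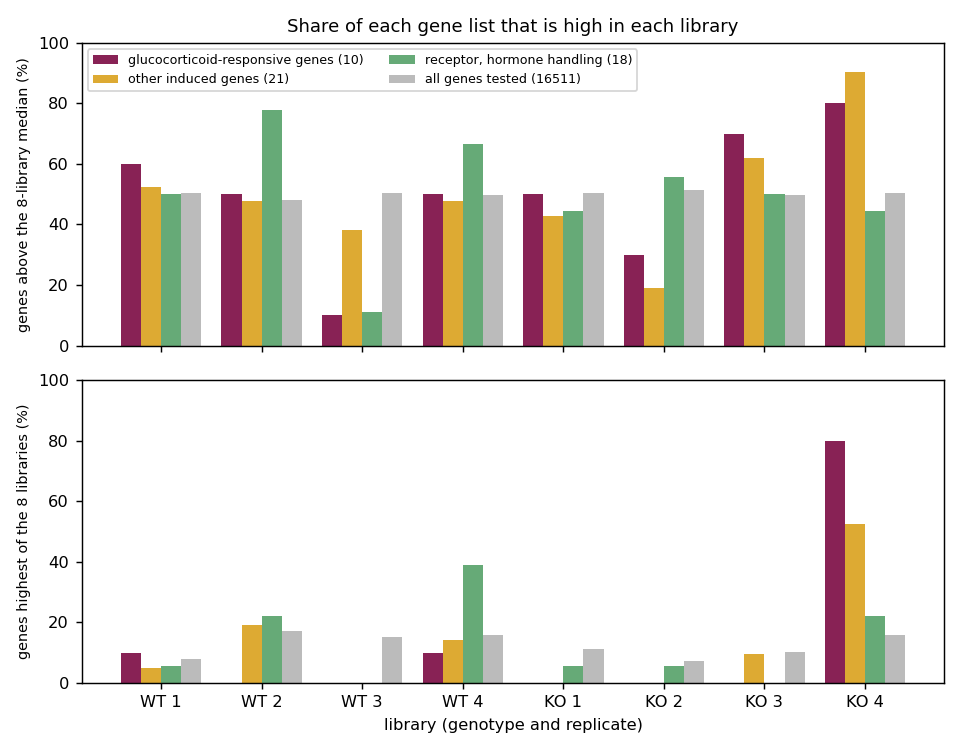
Share of genes in each library that lie above their own 8-library median (top) or are highest of the 8 libraries (bottom), for the 10 genes, the 21 other induced genes, 18 genes of hormone handling and all 16511 genes tested. In knockout replicate 4 the highest values fall to 8 of the 10 genes and 11 of the 21, against 15.8% of all genes.

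The other pathways that bear on these genes had median log2 fold changes near 0 between the genotypes. Of all genes tested, 3.76% were under an unadjusted p of 0.05 in edgeR in either direction. In knockout replicate 4, 15.8% of all genes tested were highest and 14.9% lowest. Of 16 clock and clock-output genes 0 passed in edgeR (1 at an unadjusted p under 0.05, lower), their median log2 fold change was 0.0019, and in knockout replicate 4, 1 was highest and 3 were lowest. Per2 averaged 36.2 CPM ± 4.51 in WT mice and 30.9 CPM ± 1.88 in KO mice (SD, n = 4 each), and the log2 fold changes of Bhlhe40 and Hlf were -0.21 and 0.16. Of 15 other hypoxia-induced genes and hypoxia-inducible factor subunits 0 passed in edgeR (1 at an unadjusted p under 0.05, higher), with a median of -0.0018, and in knockout replicate 4, 3 were highest and 4 were lowest. Epas1, which encodes HIF-2 alpha, had a log2 fold change of 0.20, the prolyl hydroxylase gene Egln3 -0.22 and Ldha, lactate dehydrogenase A, -0.13. Of 16 genes for perilipins and fatty acid use 13 were tested and 0 passed in edgeR (0 at an unadjusted p under 0.05), with a median of 0.01. In knockout replicate 4, 6 of these 13 were highest, among them Pnpla2, the fat cell triglyceride lipase (23.1 CPM against 15.8 to 18.7 CPM). Acot1 was not (4.38 CPM against 3.08 to 6.09 CPM). Of the 13, 10 lay above their 8-library median in knockout replicate 4, against 50.3% of all genes tested. Their median log2 deviation from the 8-library mean was 0.19 there and -0.06 to 0.04 in the other libraries.

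The sums of some marker lists were highest in the same library. Of 7 thalamic markers, all 7 were highest in knockout replicate 4, with a summed level of 481 CPM against 173 to 310.0 CPM in the other knockout libraries and 173 to 282 CPM in wild type. Knockout replicate 1 had the second highest thalamic sum. Microglia markers summed to 686 CPM in knockout replicate 4 against 552 to 633 CPM in the other 7 libraries, and oligodendrocyte markers to 11090 CPM against 7686 to 11030 CPM. Endothelial markers (440 CPM against 351 to 466 CPM), mural markers (326 CPM against 265 to 329 CPM), blood markers (122 CPM against 56.1 to 156 CPM), fibroblast markers (75.1 CPM against 52.6 to 199 CPM), choroid plexus markers (95.4 CPM against 39.1 to 2909 CPM, the last in wild-type replicate 4) and immediate early genes (424 CPM against 283 to 698 CPM) lay inside the range of the others there. Astrocyte markers summed to 7435 CPM against 6664 to 7870 CPM. In knockout replicate 4, 9 of the 10 lay above their 8-library median, against 50.3% of all genes tested. Highest there were 4, Gja1, Slc1a3, Aldoc and Gjb6, against 15.8% of all genes tested. In knockout replicates 1 and 2, 9 of the 10 also lay above their median, and 4 were highest in knockout replicate 1. The median log2 deviation of the astrocyte markers from the 8-library mean was 0.16 in knockout replicate 4 and -0.13 to 0.14 in the other libraries. For mural markers, 7 of 8 lay above their median in that library, as in wild-type replicate 4, and the median deviation was 0.15 against -0.16 to 0.10. For oligodendrocyte markers 9 of 10 and for microglia markers 6 of 8 lay above their median in knockout replicate 4, against 50.3% of all genes tested. In wild-type replicate 1 and knockout replicate 1, all 10 and all 8 did. The highest value fell in knockout replicate 4 for 6 of the 10 and 6 of the 8, against 15.8% of all genes tested. It fell in knockout replicate 1 for 3 oligodendrocyte and 0 microglia markers, and in wild-type replicate 1 for 0 of either. The median deviation in knockout replicate 4 was 0.23 for oligodendrocyte markers (-0.30 to 0.21 elsewhere) and 0.20 for microglia markers (-0.16 to 0.08 elsewhere). The part of these cell types and of thalamic tissue in the levels of the 10 genes was not tested. In bulk tissue more cells of a type and more RNA per cell cannot be told apart. Of the adipocyte markers, 4 of 6 were in the table; Adipoq and Cidec had 0 counts in knockout replicate 4, and the 4 genes together reached at most 0.307 CPM in any library.

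Genes most like Plin4 and Hif3a over the 8 libraries were taken as the 5 with the highest Pearson r of log2 CPM, outside the 10 genes and with a mean of at least 1 CPM. For Plin4 they were Mlph (r = 0.97), Polr3e (0.97), Gpt2 (0.97), Sdc4 (0.96) and Ly6c1 (0.96). For Hif3a they were Slco3a1 (0.98), Taf15 (0.96), Ly6c1 (0.96), Scg2 (0.96) and Plcl1 (0.95). Sdc4, a heparan sulfate proteoglycan gene, was at 99.9 CPM in knockout replicate 4 and 60.5 to 75.5 CPM elsewhere, and Ly6c1, an endothelial surface protein gene, at 28.9 CPM against 13.1 to 17.2 CPM. Without knockout replicate 4 the r of Gpt2, the mitochondrial alanine transaminase gene, with Plin4 was 0.97, and that of Ly6c1 was 0.71. They were picked as the highest of 14427 genes over 8 points that share library and dissection, so the values are a description.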

How the data were processed

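Poly(A)-selected RNA from 1 striatum per mouse was sequenced with a stranded kit, per the labels' protocols. The authors deposited whole-number read counts per Ensembl gene for 8 libraries. The submitters' processing notes name bcl2fastq 2.17.1.14 and the build mm10. The aligner, counter, annotation release and strand setting were not given in the sources used here.

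In R 4.3.3 with edgeR 4.0.16, filterByExpr (minimum count 10) kept 16511 of 31417 genes, libraries were TMM-scaled, and genotype was the term of a robust quasi-likelihood model fitted to all 8 libraries, with two-sided p-values adjusted by Benjamini-Hochberg at a threshold of 0.05. CPM values use the same scaling, and log2 CPM a prior count of 2. Animals are the replicates. Depth was 24441242 to 37145559 counts. The Poisson intervals and the floor of 3 counts cover counting error only. The intervals of log2 fold changes come from the quasi-likelihood fit, which also takes in variation between mice. Symbols, spans and exon lengths came from GENCODE (GRCm38), with 31292 identifiers matched and 125 not. The script was tested on simulated data.

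The 10 genes and all lists were chosen with earlier results of these data known. Besides the 10 genes, the text names Dclk3, the 3 genes of each pathway list with the smallest p, and the 5 genes most like Plin4 and Hif3a; others are said to be chosen later. Some genes that this rule gives are not reported here. Alternatives were other scalings, filters and tests (DESeq2 1.42.0, limma 3.58.1 with voom), a replicate block, and libraries left out.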

Additional observations from a re-analysis of the deposited data

Results flagged for a closer look

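Among 50 groups of 4 libraries (25 genes in 2 genotypes), 6 held a library whose gap to its nearest neighbour exceeded Dixon's critical value for its share of the group's range. Chance marks about 5% of groups of unselected values, but these genes were chosen by their values in the same libraries, so the number is not read against that rate, and 3 of the 6 are 1 library, knockout replicate 4. Plin4 was at 24.7 CPM in knockout replicate 4, with the next knockout library at 3.59 CPM. Mt2 was at 94.9 CPM in knockout replicate 4, next 62.8 CPM, and Pnpla2 at 23.1 CPM, next 17.8 CPM. In wild type, replicate 2 was low for Pdk4 at 13.1 CPM (next 18.4 CPM) and for Fam107a at 378 CPM (next 494 CPM), and replicate 4 was high for Nr3c1 at 174 CPM (next 141 CPM).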

How the results depend on the processing

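No gene of the 10 passed an adjusted p of 0.05 where one was given under the 18 alternatives; DESeq2 gave none for Plin4 in its 2 settings (lowest adjusted p 0.530, Ddit4 without replicate 4 of both genotypes). Hif3a, Sult1a1, Zbtb16 and Tsc22d3 kept their direction in all 18. Without knockout replicate 4 the log2 fold change was -0.0514 for Plin4, -0.0594 for Fkbp5, -0.1028 for Sgk1, -0.088 for Ddit4 and 0.0606 for Nr3c1, and without replicate 4 of both genotypes -0.1942, -0.1082, -0.0713, -0.2177 and 0.1552. Limma-voom with quality weights gave 0.3247 for Plin4 (1.5244 in the fit reported), 0.5248 for Hif3a (0.9354), 0.4419 for Sult1a1 (0.6752), 0.1555 for Sgk1 (0.3041), -0.0079 for Pdk4, -0.0529 for Ddit4 and 0.0463 for Nr3c1. With single libraries left out in turn, the value ran from -0.0514 to 1.86 for Plin4, -0.0594 to 0.227 for Fkbp5, -0.1028 to 0.462 for Sgk1, -0.0989 to 0.0737 for Pdk4, -0.088 to 0.1374 for Ddit4 and -0.0617 to 0.0849 for Nr3c1. Pdk4 was below 0 without wild-type replicate 2 or knockout replicate 2, and Ddit4 below and Nr3c1 above 0 also without wild-type replicate 4. The cause was not tested. The median of the 10 genes, 0.31, ran from 0.0404 (without knockout replicate 4) to 0.39 when single libraries were left out. The genes past the threshold, 1 in the fit reported, numbered 3 with DESeq2's Wald test, 2 with that test on the genes filterByExpr kept (added after seeing the data), 3 without replicate 4 of both genotypes, and 1 to 2 when single libraries were left out (2 without wild-type replicate 1). With no filter on low counts the 1 gene was Malat1, and Dclk3 did not pass.

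The count of the 10 genes above their median, with single libraries left out, ran from 4 to 6 in wild-type replicate 1, 4 to 5 in wild-type replicate 2, 0 to 1 in wild-type replicate 3, 3 to 5 in wild-type replicate 4 and knockout replicate 1, 3 in knockout replicate 2, 5 to 6 in knockout replicate 3 and 8 in knockout replicate 4; no other scaling moved a count by over 1.5 times. With the replicate number as a block 1 gene passed, as without it, and Plin4 was at 0.7778. The numbers did not pair the libraries: same-numbered libraries correlated at -0.326 to 0.0757, and 1 of 4 correlated best with its own number. The wider motif window was not run, since no genome sequence was used here. With 4 mice per genotype and 1 of them far from the others, the interval for Plin4 spans 0 widely.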

Other observations

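Of the 14427 genes with a mean of at least 1 CPM, the one ahead of Plin4 in knockout replicate 4 against the median of the other 7 libraries was Shox2, a homeobox gene of thalamic neurons, at 9.37-fold (15.7 CPM, with at most 8.36 CPM elsewhere). Next after Plin4 came Prkcd, a kinase gene and thalamic marker, at 6.53-fold (167 CPM, with at most 69.9 CPM elsewhere). In the other direction 49 genes were more than 2-fold lower in that library than the median of the others. These genes were chosen after their values were seen.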
